A study of Mus musculus with 8 samples.

Results

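The 10 genes described here are genes of testicular macrophages, namely Csf1r, Adgre1, Cd68, Mrc1, Cd163, C1qa, C1qb, C1qc, Cx3cr1 and Tyrobp. They were taken by symbol from a table of 19906 mouse genes, in which each of the 10 had a single row. The libraries came from whole testis of mice aged 2 months, 4 labelled Tmem232-/- and 4 labelled Tmem232+/+, with 1 mouse per library. As the methods of the study describe, the knockout mice carry a deletion inside Tmem232, made by injecting CRISPR-Cas9 into fertilized C57BL/6 oocytes. No promoter or Cre limits the deletion to a cell type. The comparison addressed here is whether RNA of the resident macrophages differed between the genotypes.

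Testicular macrophages live in the interstitium, where they lie against Leydig cells, and on the wall of the seminiferous tubules, next to the peritubular myoid cells. They depend on the growth factor receptor encoded by Csf1r, clear dying cells and debris, and help to keep the tissue tolerant of germ cells. The interstitial cells are known for Csf1r and Mrc1, and the peritubular cells for MHC class II. In RNA from whole testis, fewer macrophages and less RNA per macrophage cannot be told apart.

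Between 15428421 and 16350871 counts were assigned per library, with medians of 16033033 for Tmem232-/- and 16074422 for Tmem232+/+. Levels are given as CPM, the counts of a gene per 1000000 of its library after TMM scaling, which allows for differences in library composition. Tmem232 itself reached 147, 132, 123 and 122 CPM in replicates 1 to 4 labelled Tmem232-/-, against 111, 106, 108 and 110 CPM in those labelled Tmem232+/+. The count of the targeted gene was thus not lower under the knockout label (log2 fold change 0.27, SE 0.072, edgeR adjusted p = 0.0335). That adjusted p was 0.114 with the replicate number as a block and between 0.0858 and 0.0892 in edgeR without Tmem232-/- replicate 1 or 2 or Tmem232+/+ replicate 2 or 4, each over the threshold of 0.05. The deletion removes a fragment of the gene, and counts per gene do not show which exons the reads came from. For the knockout mice the paper reports genotyping by PCR and absence of TMEM232 protein from the testis. These counts neither verify nor contradict the labels, and the genotype is given throughout as the label states it.

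The chains of complement C1q were, per length, the most abundant of the 10. C1qa, C1qb and C1qc encode the chains of the recognition molecule of the classical complement pathway, which macrophages make and which binds antibody complexes and dying cells. They lie side by side on the minus strand of chromosome 4 (GRCm38), with C1qb (Entrez 12260) at chr4:136880145-136886177, C1qc (Entrez 12262) at chr4:136888838-136892932 and C1qa (Entrez 12259) at chr4:136895916-136898844. The cluster spans 18700 bases, with 2660 bases between C1qb and C1qc and 2983 between C1qc and C1qa, and 0 other genes of the table lie inside it.

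Promoter sequences of RefSeq on GRCm38.p6, from 250 bases before to 50 bases after the start of the gene, were matched by symbol for 6 of the 10 genes, and those in which a core letter pattern of the macrophage transcription factor PU.1 was found are shown. The pattern was GAGGAA on either strand, and it is in capitals, written TTCCTC where it lies on the other strand. C1qb (chr4:136886151-136886450, minus strand) and C1qc (chr4:136892865-136893164, minus strand) are the neighbours in the C1q cluster. Mrc1 (chr2:14229164-14229463, plus strand) and Cd68 (chr11:69666121-69666420, minus strand) are shown because they held more than 1 match.
C1qb: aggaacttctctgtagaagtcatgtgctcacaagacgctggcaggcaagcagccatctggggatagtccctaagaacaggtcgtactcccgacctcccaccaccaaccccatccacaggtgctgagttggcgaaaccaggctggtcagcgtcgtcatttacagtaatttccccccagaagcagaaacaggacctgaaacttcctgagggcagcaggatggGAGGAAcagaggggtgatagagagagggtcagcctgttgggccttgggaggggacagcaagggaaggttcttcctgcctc
C1qc: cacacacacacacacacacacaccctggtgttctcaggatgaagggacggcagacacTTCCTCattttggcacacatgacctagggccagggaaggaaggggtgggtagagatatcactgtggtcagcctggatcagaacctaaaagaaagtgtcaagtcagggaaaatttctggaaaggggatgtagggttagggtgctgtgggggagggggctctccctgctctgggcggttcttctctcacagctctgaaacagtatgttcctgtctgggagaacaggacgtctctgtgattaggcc
Mrc1: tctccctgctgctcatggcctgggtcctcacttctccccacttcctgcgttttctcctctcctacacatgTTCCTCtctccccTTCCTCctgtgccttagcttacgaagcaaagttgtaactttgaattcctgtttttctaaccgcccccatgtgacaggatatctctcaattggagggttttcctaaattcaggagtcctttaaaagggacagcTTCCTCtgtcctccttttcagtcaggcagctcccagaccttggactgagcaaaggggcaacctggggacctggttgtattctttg
Cd68: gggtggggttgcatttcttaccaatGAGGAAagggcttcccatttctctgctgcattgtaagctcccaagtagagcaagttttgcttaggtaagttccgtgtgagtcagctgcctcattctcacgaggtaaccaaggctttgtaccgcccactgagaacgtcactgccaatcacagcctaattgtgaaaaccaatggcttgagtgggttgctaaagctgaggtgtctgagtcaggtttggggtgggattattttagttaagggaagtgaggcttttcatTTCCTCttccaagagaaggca

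GAGGAA was present in 4 of the 6 promoters, at 1 place in C1qb and C1qc, 2 in Cd68 and 3 in Mrc1, and in 28.3% of 32851 mouse promoters of the same length. The pattern is short and common, and a match is a description of the letters and no evidence of binding. The first letter of the match lay at -30 from the gene start in C1qb, at -193 in C1qc, at -35, -167 and -180 in Mrc1 and at -225 and 29 in Cd68. The longer GAGGAAG, which contains GAGGAA, was found in the windows of Mrc1 and C1qc and in 13.6% of all promoters. TATAAA was found in none of the 6 windows and in 13.6% of all promoters. The windows of Cd163 and Cx3cr1 did not hold these letters.

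C1qa was measured at 11.2, 14.4, 12.6 and 18.1 CPM in replicates 1 to 4 labelled Tmem232-/-, and at 13, 15.9, 15.9 and 18.6 CPM in those labelled Tmem232+/+. C1qb reached 9.24, 12.6, 10.3 and 14.5 CPM under the first label and 11.4, 14.3, 11.3 and 13.4 CPM under the second. C1qc reached 8.58, 10.4, 8.47 and 11.7 CPM against 9.53, 11.3, 9.81 and 11.5 CPM. For each chain the values of the labels overlapped, and replicates 2 and 4 of Tmem232-/- were above its replicates 1 and 3. The log2 fold changes were -0.17 for C1qa (SE 0.155, edgeR adjusted p = 0.537), -0.11 for C1qb (SE 0.148, adjusted p = 0.676) and -0.10 for C1qc (SE 0.131, adjusted p = 0.658). Expressed as a ratio, the 95% intervals ran from 0.704 to 1.13 for C1qa, from 0.739 to 1.16 for C1qb and from 0.763 to 1.14 for C1qc, so a fall or rise of 1.5-fold in any of the chains lay outside the interval.

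Levels of different genes were compared on deposited values read as FPKM, which divide by transcript length. The unit is not named in the labels. It was inferred from counts and library totals, which implied nearly the same length for a gene in each library. Annotated transcript lengths were not part of this check. C1qa averaged 16.5 ± 3.19 FPKM, C1qb 13.7 ± 2.36 FPKM and C1qc 11.6 ± 1.64 FPKM (SD, n = 8). The order C1qa, C1qb, C1qc held in 8 of 8 libraries, although the SDs of neighbouring chains overlapped. The ratio of C1qb to C1qc was the most even, between 1.07 and 1.26 over the libraries (CV 4.93%), against a CV of 9.01% for C1qa over C1qb and 8.04% for C1qa over C1qc. In Tmem232-/- replicate 1 that ratio was 1.07, and in the other libraries with this label it was 1.2, 1.2 and 1.22. For each of these 3 ratios the libraries of the labels overlapped.

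**Figure D1:**
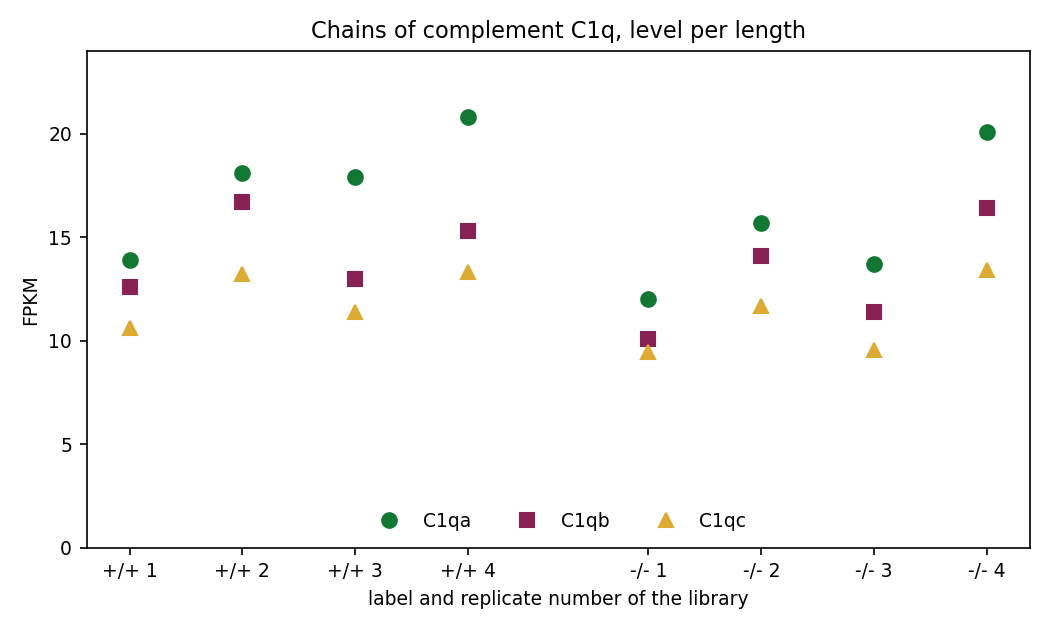
Deposited FPKM of C1qa, C1qb and C1qc (vertical axis) in each of the 8 libraries, named by label and replicate number; each point is 1 library. The order of the chains is the same in 8 of 8 libraries, and C1qa ranges around its mean of 16.5 FPKM.

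Over the 8 libraries, log2 levels of C1qb and C1qc had a Pearson r of 0.96 (exact permutation p = 0.000397, adjusted 0.0179 over the 45 pairs of the 10 genes) and a Spearman rho of 0.93 (exact p = 0.00223, adjusted 0.0502). C1qa and C1qc had an r of 0.92 (exact permutation p = 0.00283, adjusted 0.0424) and a rho of 0.93 (exact p = 0.00223, adjusted 0.0502). Csf1r and Adgre1 had an r of 0.84 (exact permutation p = 0.00236, adjusted 0.0424) and a rho of 0.83 (exact p = 0.0154, adjusted 0.0989). C1qa and C1qb had an r of 0.87 (exact permutation p = 0.00672, adjusted 0.0612) and a rho of 0.86 (exact p = 0.0107, adjusted 0.0989), over the threshold after adjustment. After the mean of each label was subtracted, r was 0.96, 0.91, 0.86 and 0.86 for these pairs. Without the 2 libraries farthest from the median, r was 0.96, 0.87, 0.61 and 0.8, so the relation of Csf1r and Adgre1 rested in part on 2 libraries. No pair besides the first 3 had an adjusted p under 0.05 by Pearson's r, and 0 of the 45 pairs had one by Spearman's rho.

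Csf1r, the receptor for the growth factors CSF1 and IL-34 on which macrophages depend, is on chromosome 18 (Entrez 12978). Its level was 11, 20.8, 14.3 and 18.4 CPM in replicates 1 to 4 labelled Tmem232-/-, and 13.3, 16.2, 10.4 and 19.3 CPM in those labelled Tmem232+/+. The highest value belonged to Tmem232-/- and the lowest to Tmem232+/+, with full overlap between. The log2 fold change was 0.12 (SE 0.216, edgeR adjusted p = 0.76), with a 95% interval of the ratio from 0.783 to 1.51. Without Tmem232-/- replicate 2 it was -0.02. The CV within a label was 27.1% for Tmem232-/- and 25.7% for Tmem232+/+, beside 6.35% from counting alone.

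The ligands of this receptor and of the fractalkine receptor were measured in the same RNA. Csf1 averaged 16.9 ± 2.78 CPM for Tmem232-/- and 17.3 ± 4.41 CPM for Tmem232+/+ (SD, n = 4 each; log2 fold change -0.03, edgeR adjusted p = 0.942). Cx3cl1, which encodes fractalkine, averaged 10.4 ± 1.78 CPM against 11 ± 1.76 CPM (-0.09, edgeR adjusted p = 0.759). Il34 was below the filter on low counts. So 0 of the 2 ligand genes tested passed the threshold, which 11.8% of all genes tested passed. The direction of each turned under at least 1 alternative.

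Adgre1 (Entrez 13733, chr17:57358651-57483529, plus strand) encodes F4/80, the adhesion receptor by which mouse macrophages are usually stained. It was measured at 2.93, 6.27, 4.42 and 3.87 CPM for Tmem232-/- and at 3.49, 3.99, 1.71 and 4.05 CPM for Tmem232+/+. Its log2 fold change, 0.40, was the highest of the 10 genes (SE 0.283, edgeR adjusted p = 0.411). It was 0.18 without Tmem232-/- replicate 2 and 0.22 without Tmem232+/+ replicate 3, below the 0.25 and 0.27 of Cd68, and also below Cd68 on log2(FPKM + 1), at 0.18 against 0.20. The libraries of the labels overlapped, and the 95% interval of the ratio, 0.858 to 2.03, was wide.

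Mrc1 (Entrez 17533, chr2:14229414-14332023, plus strand) encodes the mannose receptor CD206, which binds sugars of microbes and of the body's own glycoproteins. It had the highest CPM of the 10 genes, at 37.3, 40.1, 39.1 and 36.4 for Tmem232-/- and at 31.6, 43.3, 29.6 and 42.0 for Tmem232+/+. The 4 Tmem232-/- libraries lay inside the range of the Tmem232+/+ libraries. Means were 38.2 ± 1.65 and 36.6 ± 7.04 CPM (SD, n = 4 each), a log2 fold change of 0.06 (SE 0.121, edgeR adjusted p = 0.786) with a ratio between 0.868 and 1.25. The CV of 4.32% for Tmem232-/- was near the 4.09% that counting gives, whereas the CV of 19.2% for Tmem232+/+ was above it; the difference in spread was not tested.

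Cd163 (Entrez 93671, chr6:124304630-124330529, plus strand) encodes the scavenger receptor for haemoglobin bound to haptoglobin. It was the lowest of the 10 genes, with 6, 15, 14 and 15 counts for Tmem232-/- and 13, 16, 13 and 27 counts for Tmem232+/+, or 0.399 to 0.941 CPM and 0.809 to 1.66 CPM. The low mean of the first label came with 1 library, replicate 1, and the high mean of the second with replicate 4. The log2 fold change of -0.43 (SE 0.337, edgeR adjusted p = 0.463) was -0.22 without Tmem232-/- replicate 1 and -0.13 without Tmem232+/+ replicate 4. At this depth the interval of the ratio ran from 0.445 to 1.24, so a fall by 2-fold lay inside it.

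Cx3cr1 (Entrez 13051, chr9:120048652-120068512, minus strand) encodes the receptor for fractalkine. It reached 5.12, 6.33, 4.17 and 6.21 CPM for Tmem232-/- and 3.24, 7.02, 4.49 and 7.06 CPM for Tmem232+/+. Replicates 2 and 4 were the higher libraries under both labels. The means, 5.46 ± 1.02 and 5.45 ± 1.9 CPM (SD, n = 4 each), gave a log2 fold change of 0.00 (SE 0.243, edgeR adjusted p = 1.0) and an interval of the ratio from 0.691 to 1.45. Its sign turned under scaling by library size alone and without several of the libraries.

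Cd68 (Entrez 12514, chr11:69664213-69666170, minus strand) encodes a glycoprotein of lysosomes and is used as a marker of phagocytes in general. It was measured at 6.58, 6.84, 5.63 and 7.5 CPM for Tmem232-/- and at 4.67, 6.11, 5.19 and 6.08 CPM for Tmem232+/+. Replicate 3 alone kept the groups from lying apart, since the other 3 Tmem232-/- libraries were above the 4 Tmem232+/+ libraries. The log2 fold change was 0.27 (SE 0.138, edgeR adjusted p = 0.26), with a ratio between 0.975 and 1.49. An exact permutation test of the CPM, two-sided over the 70 arrangements of the libraries, gave p = 0.086, the lowest of the 10 genes; the smallest p this design can give is 0.029.

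Tyrobp (Entrez 22177, chr7:30413788-30417582, plus strand) encodes DAP12, the adaptor that carries signals from activating receptors of myeloid cells to the kinase Syk. It was measured at 2.33, 2.38, 1.9 and 2.64 CPM for Tmem232-/- and at 1.68, 2.84, 2.72 and 3.07 CPM for Tmem232+/+, with overlap. The log2 fold change was -0.16 (SE 0.209, edgeR adjusted p = 0.678), with a ratio between 0.652 and 1.23.

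**Figure D2:**
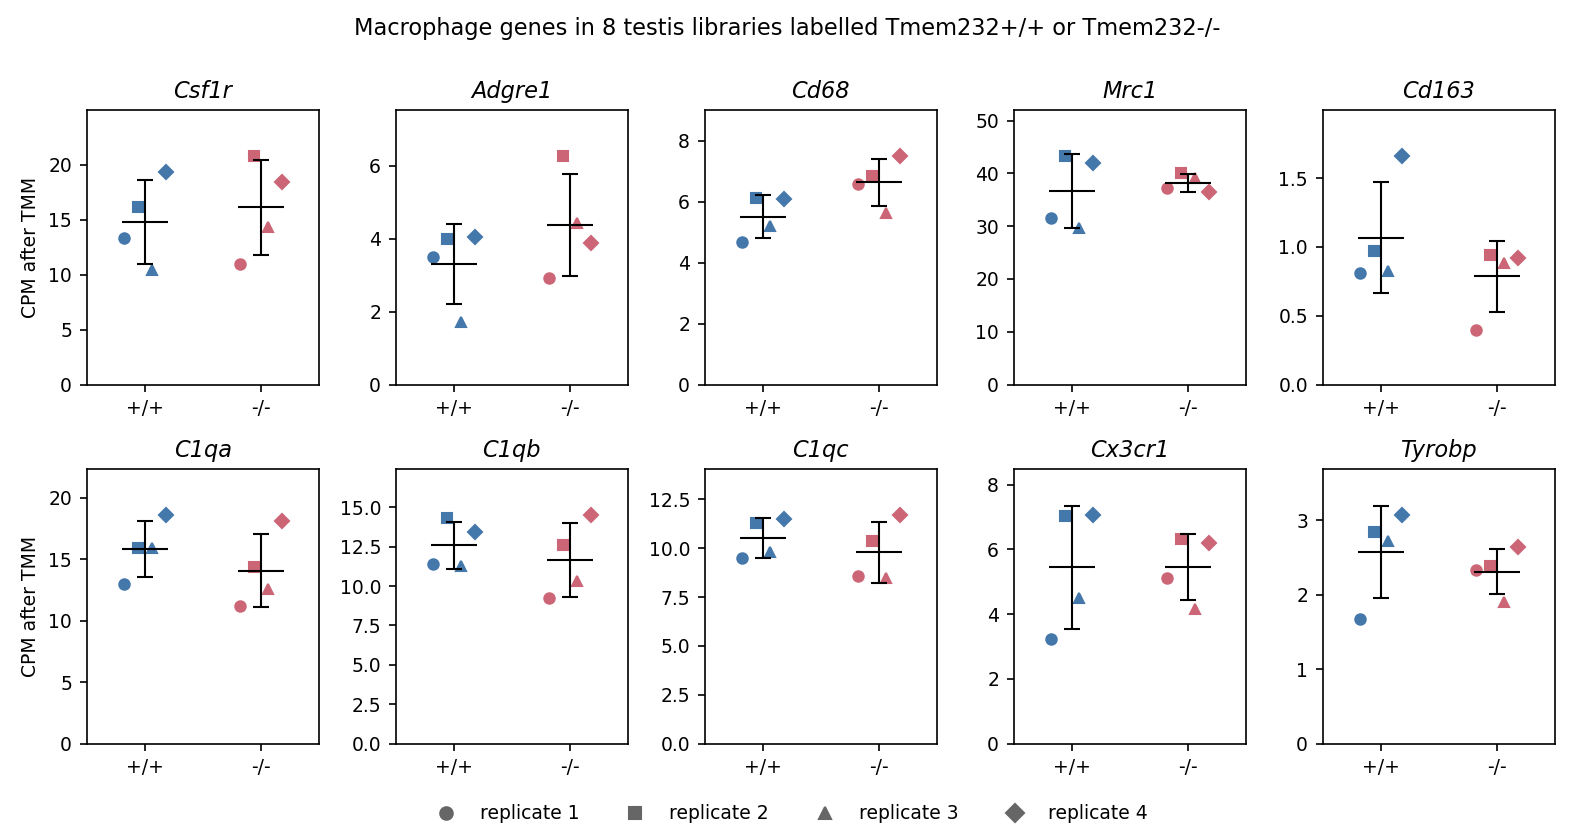
CPM after TMM scaling (vertical axes, each from 0) of the 10 macrophage genes in the libraries labelled Tmem232+/+ and Tmem232-/-; each point is 1 library with the shape of its replicate number, and bars give the mean and SD of 4. The labels overlap in each panel, with the nearest approach to separate groups for Cd68.

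Of the 10 genes, 10 passed the filter on low counts and 0 had an edgeR adjusted p under 0.05, against 11.8% of the 15787 genes tested (10.3% higher and 1.46% lower in Tmem232-/-). The number with an unadjusted p under 0.05 was likewise 0 by edgeR, by DESeq2 and by limma-voom, against 25.1% of all genes tested in edgeR. It was 1 in edgeR without the filter and 1 without Tmem232-/- replicate 3. CPM of the labels did not overlap for 0 of the 10 genes, against 18.7% of all genes tested. The log2 fold change was above 0 for 5 genes and below 0 for 5, with a median of -0.05, beside a median of -0.054 over all genes tested. The intervals lay within a 2-fold change in both directions for 8 of the 10 genes, with Adgre1 and Cd163 as the exceptions, and within a 1.5-fold change for 6. A p over the threshold does not show equal levels, and for Adgre1 and Cd163 the data allow differences of up to 2.03-fold higher and 0.445 of the control level.

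The summed level of the 10 genes was 94.7, 121, 102 and 120 CPM in replicates 1 to 4 labelled Tmem232-/-, and 92.7, 122, 91.9 and 127 CPM in those labelled Tmem232+/+. Means were 109 ± 13.3 and 108 ± 18.6 CPM (SD, n = 4 each). The 8 libraries thus fell at 2 levels, with replicates 2 and 4 of both labels above replicates 1 and 3. Standardised per gene and averaged, the higher libraries lay between 0.54 and 0.92 and the lower between -0.86 and -0.49 SD units. Of the 10 genes, 4 had their highest level in Tmem232+/+ replicate 4 and 3 in Tmem232-/- replicate 4, and the lowest level was in a replicate 1 or 3 for each. The labels name no batch, litter or day that these numbers could mark, and across all genes same-numbered libraries did not deviate together.

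**Figure D3:**
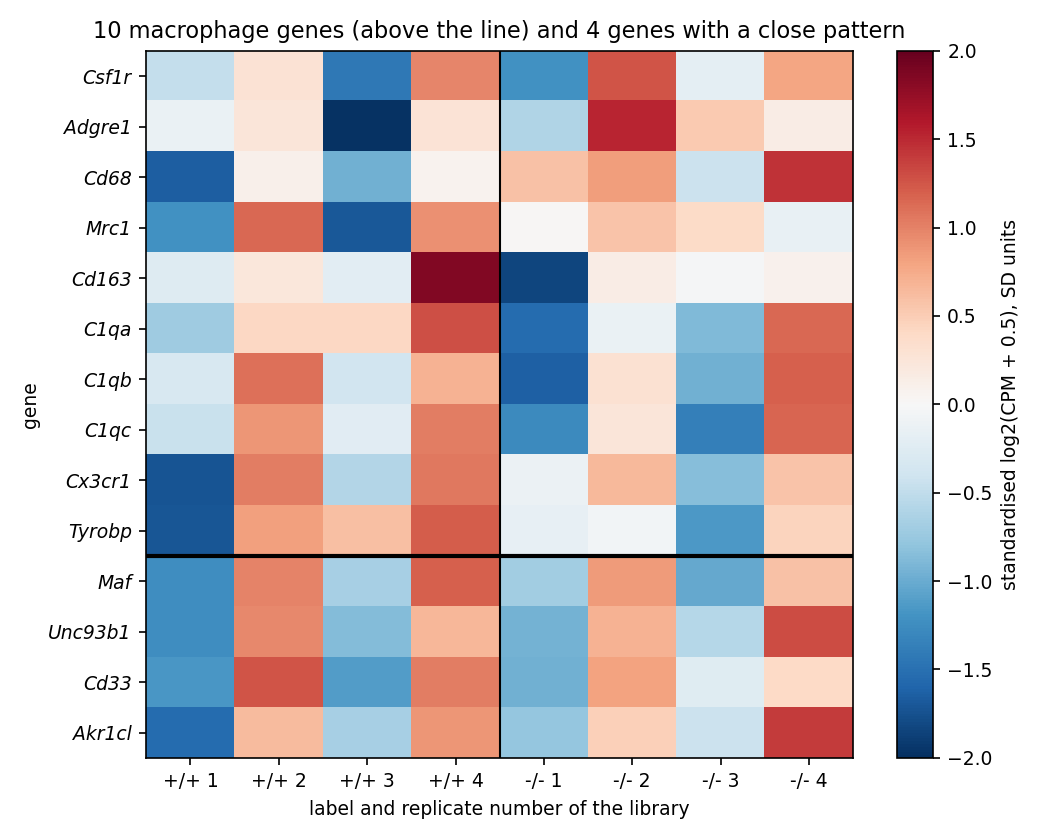
Standardised log2(CPM + 0.5) of the 10 macrophage genes (above the thick line) and of 4 other genes with a pattern close to their mean (below it), by library; red is above and blue below the mean of the gene, in SD units over 8 libraries. Replicates 2 and 4 are mostly red and replicates 1 and 3 mostly blue under both labels.

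Pearson's r between log2 levels was above 0 for 43 of the 45 pairs of the 10 genes and above 0.7 for 12, with a median of 0.56 and a range from -0.13 for Adgre1 and Tyrobp to 0.96 for C1qb and C1qc. With the mean of each label subtracted, the median was 0.66. These are correlations over 8 libraries that share their depth, composition and tissue.

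Among 15052 other genes, the mean pattern of the 10 was matched closely by Maf (r 0.968), Unc93b1 (0.963), Cd33 (0.947) and Akr1cl (0.945), as a description over 8 libraries at 2 levels. Maf, a transcription factor made by many resident macrophages, ranged from 4.79 to 8.96 CPM. Unc93b1 carries the Toll-like receptors of endosomes to their place, and Cd33 encodes a sialic acid-binding receptor of myeloid cells. Akr1cl, an aldo-keto reductase gene, was the most abundant of these, at 71.8 to 123 CPM. None of these 4 had an edgeR adjusted p under 0.05 between the labels. The median r with the mean of the 10 was 0.65 over the complement genes (range -0.33 to 0.87). It was 0.57 over other macrophage markers (-0.26 to 0.93) and 0.47 over macrophage transcription factors (-0.31 to 0.97). Tyrobp partners had a median of 0.33 (-0.18 to 0.65) and MHC class II genes 0.22 (-0.27 to 0.45). It was 0.7 over 3 monocyte markers (-0.43 to 0.82) and 0.54 over endothelial markers (0.22 to 0.78). Over Leydig cell and red blood cell markers it was 0.51 (0.4 to 0.85 and 0.46 to 0.73). It was lower over markers of Sertoli cells (0.29), dendritic cells (0.06), peritubular myoid cells (-0.06), spermatids (-0.09) and 2 T and NK cell genes (-0.34), against -0.04 over all genes.

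The per-length order of the other genes followed the C1q chains. Mrc1 averaged 7.28 ± 0.974, Tyrobp 6.2 ± 1.31, Cd68 5.66 ± 0.859, Csf1r 4.39 ± 1.12, Cx3cr1 1.59 ± 0.434, Adgre1 1.34 ± 0.439 and Cd163 0.228 ± 0.0861 FPKM (SD, n = 8). Mrc1 was above Tyrobp in 7 of 8 libraries, Cd68 above Csf1r and Csf1r above Cx3cr1 in 8, and Adgre1 above Cd163 in 8. Over the 8 libraries Tyrobp and Cd68 did not differ beyond their spread, nor did Cx3cr1 and Adgre1, with Cx3cr1 higher in 5. Tyrobp was above Cd68 in 3 of 8 libraries, namely Tmem232+/+ replicates 2, 3 and 4. There Tyrobp reached 7.48, 7.0 and 7.89 FPKM, against 5.87, 4.94 and 5.75 FPKM for Cd68. It was below Cd68 in Tmem232+/+ replicate 1 and in each Tmem232-/- library. This split by label was not tested.

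The other genes of the same cells and pathways were read from lists. Over 6 lists (ligands, Tyrobp partners, transcription factors, complement, other macrophage markers and MHC class II) 74 of 88 genes could be tested, 5 were higher and 1 was lower in Tmem232-/-, or 8.11%, with a median log2 fold change of -0.04. That share is below the 11.8% over all genes, and it was not tested. Some genes of these lists may also be expressed by germ cells or other testis cells, which was not tested. The list names do not show the source of the RNA.

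Among the receptors that signal through Tyrobp and their kinases, 1 of 4 tested genes was higher and 0 were lower. Over all genes tested the shares were 10.3% and 1.46%. Trem1, which encodes an activating receptor of myeloid cells, was at 3.66, 2.7, 2.97 and 2.52 CPM for Tmem232-/- and at 0.996, 0.363, 1.33 and 1.53 CPM for Tmem232+/+. The groups did not overlap, with a log2 fold change of 1.48 (SE 0.318, edgeR adjusted p = 0.00895). With a minimum of 10 counts in every library Trem1 was not tested, as Tmem232+/+ replicate 2 held 6 counts. The call held in the other 17 alternatives. Syk, the kinase downstream of Tyrobp, averaged 4.0 and 3.97 CPM (0.01, edgeR adjusted p = 0.971), and Plcg2, a phospholipase activated by it, 5.12 and 5.03 CPM (0.03, edgeR adjusted p = 0.938).

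Of 33 other macrophage markers tested, 3 were higher and 1 was lower, with a median log2 fold change of 0.02. Among all genes tested, 10.3% were higher and 1.46% lower. Aif1, which encodes the actin-binding protein IBA1 used to stain macrophages, was at 80.7, 56.8, 49.1 and 71.3 CPM for Tmem232-/- and at 18.6, 13.1, 31.0 and 21.3 CPM for Tmem232+/+ (log2 fold change 1.62, SE 0.230, edgeR adjusted p = 0.000529). Msr1, a scavenger receptor for modified lipoproteins, was at 4.66, 4.01, 4.11 and 3.81 CPM against 1.62, 2.42, 2.59 and 2.09 CPM (0.92, SE 0.172, edgeR adjusted p = 0.00353). Neither group of values overlapped, and both calls held in each of the 18 alternatives.

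Clec4a2, a lectin receptor whose reads may be shared with close copies of the gene, averaged 2.82 ± 0.435 CPM for Tmem232-/- and 1.81 ± 0.292 CPM for Tmem232+/+ (SD, n = 4 each; 0.64, SE 0.186, edgeR adjusted p = 0.0488). Lyve1, a hyaluronan receptor of lymphatic vessels and of some resident macrophages, was the marker that fell, with 1.67 ± 0.479 against 2.81 ± 0.214 CPM (-0.75, SE 0.209, edgeR adjusted p = 0.0387). Both calls were close to the threshold and were lost under DESeq2 (adjusted p = 0.0884 and 0.0658) and with the replicate block (edgeR adjusted p = 0.115 and 0.0815), that of Clec4a2 also with library size alone (0.0648) and that of Lyve1 without the filter (0.0609). The call of Clec4a2 was also lost in edgeR without any 1 of Tmem232-/- replicates 2, 3 and 4 and Tmem232+/+ replicates 1, 2 and 4 (adjusted p = 0.0741 to 0.156), and that of Lyve1 without any 1 library other than Tmem232-/- replicate 2 (adjusted p = 0.0692 to 0.103).

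Genes of round and elongating spermatids differed between the same libraries, beside these results. Their 8 markers summed to 1545, 1260, 927 and 1483 CPM for Tmem232-/- and to 310, 243, 419 and 338 CPM for Tmem232+/+. By edgeR 8 of 8 were higher, against 10.3% of all genes tested. Aif1 and the spermatid sum shared their highest Tmem232-/- library, replicate 1, their lowest, replicate 3, and their highest and lowest Tmem232+/+ libraries, replicates 3 and 2. Msr1 and Trem1 shared its highest Tmem232-/- library, Msr1 its highest Tmem232+/+ library and Trem1 its lowest, while both were lowest in replicate 4 of Tmem232-/-, Msr1 was lowest in replicate 1 and Trem1 highest in replicate 4 of Tmem232+/+. Whether spermatids had a part in the values of Aif1, Msr1 and Trem1 was not tested.

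**Figure D4:**
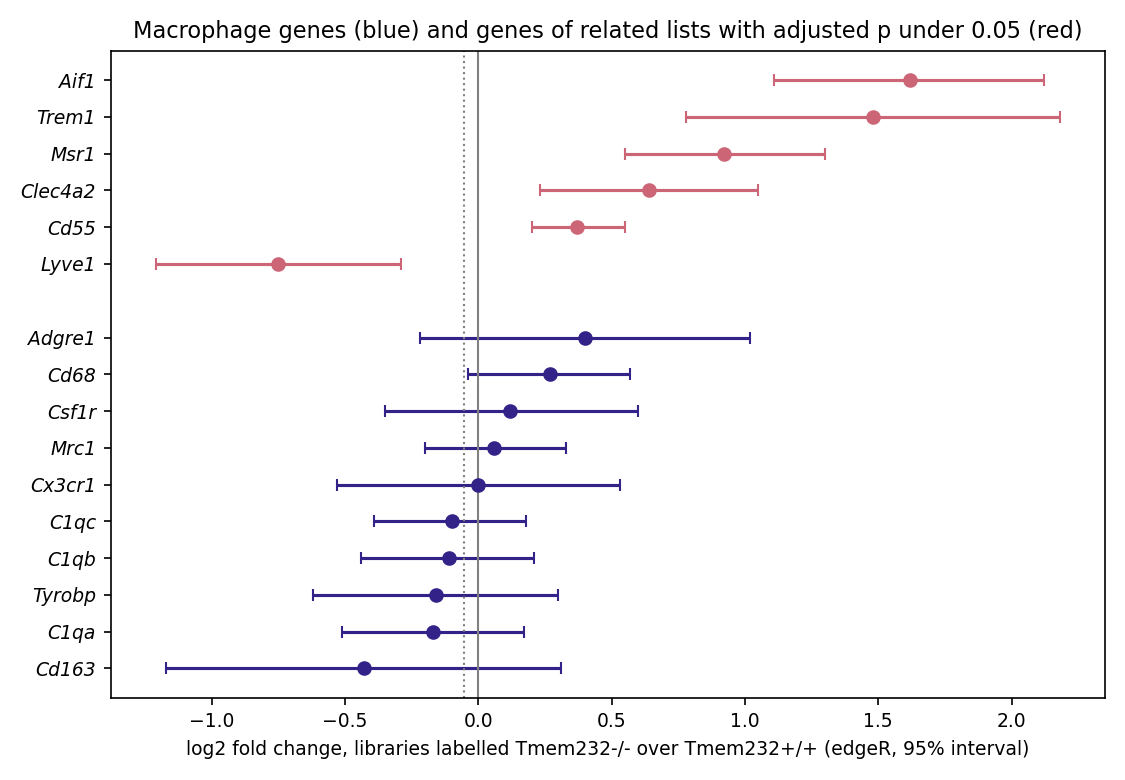
Log2 fold change of Tmem232-/- over Tmem232+/+ libraries from edgeR with its 95% interval (horizontal axis) for the 10 macrophage genes (blue) and for the genes of related lists with an adjusted p under 0.05 (red); the dotted line is the median of all genes tested, -0.054. The intervals of the 10 genes include 0, and those of Aif1, Trem1, Msr1, Clec4a2 and Cd55 lie above it and that of Lyve1 below.

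Of the 18 complement genes tested besides the C1q chains, 1 was higher and 0 were lower, with a median log2 fold change of -0.01. The shares over all genes tested were 10.3% and 1.46%. Cd55, which encodes the decay-accelerating factor that protects cells from complement, averaged 34.1 ± 2.44 CPM for Tmem232-/- and 26.3 ± 1.67 CPM for Tmem232+/+ (SD, n = 4 each; 0.37, SE 0.081, edgeR adjusted p = 0.00941). With the replicate number as a block its adjusted p from edgeR was 0.062. Serping1 and C1s1, the most abundant of the list that act on the C1 complex, did not pass the test. Serping1, the C1 inhibitor, averaged 48.0 ± 8.89 against 54.2 ± 8.58 CPM (-0.17, edgeR adjusted p = 0.495), and C1s1, a C1 protease gene with a close copy in the mouse, 31.3 ± 8.31 against 31.4 ± 5.49 CPM (edgeR adjusted p = 0.993).

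The transcription factors of macrophages gave 0 calls among 10 tested genes, and the MHC class II genes 0 among 7, against 11.8% of all genes tested. Nr1h3, the lipid-sensing receptor LXR alpha, averaged 8.35 CPM for Tmem232-/- and 9.08 CPM for Tmem232+/+ (-0.12, edgeR adjusted p = 0.633). Of the class II genes, which mark the peritubular macrophages, H2-DMa averaged 10.9 ± 0.952 against 10.1 ± 1.31 CPM (edgeR adjusted p = 0.619), and H2-Ab1 6.55 ± 1.3 against 7.24 ± 0.999 CPM (-0.14, edgeR adjusted p = 0.615). The number of genes with an unadjusted p under 0.05 was 0 in both lists, against 25.1% of all genes tested.

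The cells that lie beside the macrophages were read in the same libraries. The 7 Leydig cell markers summed to 477, 591, 569 and 706 CPM for Tmem232-/- and to 306, 536, 418 and 536 CPM for Tmem232+/+, and 0 passed the threshold, with a lowest edgeR adjusted p of 0.0512, while 5 had an unadjusted p under 0.05, a threshold that 25.1% of all genes tested passed. In 9 of 18 alternatives between 1 and 3 of the Leydig cell markers were called, with Lhcgr, the receptor for luteinizing hormone, in 8 of them. The 5 peritubular myoid markers ranged from 197 to 235 CPM in sum against 250 to 296 CPM. Of these, 2 were lower, Acta2 (edgeR adjusted p = 0.0182) and Myh11 (adjusted p = 0.0124), beside 1.46% lower over all genes tested. The call of Acta2 was lost in 4 of 18 alternatives, namely with the replicate block (adjusted p = 0.0933) and without Tmem232-/- replicate 1 or 3 or Tmem232+/+ replicate 1 (0.0629, 0.0608 and 0.12), and that of Myh11 without Tmem232+/+ replicate 1 (0.0549). Markers of endothelial cells summed to between 28.8 and 47.0 CPM against 29.0 and 43.7 CPM. The sum of the 10 genes over the Leydig sum was 0.17 to 0.205 for Tmem232-/- and 0.22 to 0.303 for Tmem232+/+, without overlap. The sums of the 10 genes themselves overlapped between the labels. This ratio, and the part of these neighbouring cells in the levels of the 10 genes, were not tested.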

How the data were processed

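Whole testes of mice of both genotypes were profiled by RNA-seq. According to the submitters' processing notes and the study's methods, the tools used were HISAT, Bowtie2, StringTie, featureCounts and DESeq2 with the build GRCm38.p6; versions are not given in the sources used here. The deposited estimated counts per gene are not normalized, and between 10.71% and 11.2% of values per library were not whole, so they were rounded. The other deposited values per library were read as FPKM, a unit inferred from 1081 genes with 1 transcript. In these genes the length implied by counts, library total and deposited value was nearly constant over the libraries (median CV 0.401%). The check did not use annotated transcript lengths. The table's averages, fold changes and p-values of the authors were not used.

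Counts were analysed in R 4.3.3 with edgeR 4.0.16 (default filter on low counts, TMM, quasi-likelihood test, Benjamini-Hochberg adjustment over the 15787 tested genes, threshold 0.05), with no covariates. Single genes were also compared by a two-sided exact permutation test in Python 3.11.15. Libraries were grouped by their labels, and each came from a separate mouse. Steps were tested on simulated data before use. Alternatives were DESeq2 1.42.0, its size factors, library size alone, leaving out the 10 most abundant genes, no filter, a minimum of 10 counts, limma-voom (limma 3.58.1), log2(FPKM + 1) and log2(FPKM + 0.1) with limma, a replicate block, and each library left out.

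The 10 genes and the other lists were chosen with earlier results of these data known. Named were the 10 genes and, of the pathway lists, the genes with an adjusted p under 0.05 and the 2 most abundant, with the 5 genes most like the mean of the 10; some of these are not reported here. Of the lists of other cells, sums or counts are given for some, but not for Sertoli cells, red blood cells, B cells and neutrophils. Lhcgr, Acta2, Myh11, Cd3e, Cd3d, Cd3g, Cd4 and Lck are also named. Promoters were taken from RefSeq.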

Additional observations from a re-analysis of the deposited data

Results flagged for a closer look

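In 3 of 62 groups of 4 libraries, 1 library lay apart from the rest by Dixon's criterion (the gap to the nearest library as a share of the range), where chance alone gives about 3.1. Cd163 in Tmem232-/- replicate 1 was at 0.399 CPM, from 6 counts, beside 0.941, 0.885 and 0.922 CPM in the other libraries with this label. The ratio of C1qb to C1qc in FPKM was 1.07 in the same library, beside 1.2, 1.2 and 1.22. Serping1 was at 41.4 CPM in Tmem232+/+ replicate 3, beside 58.0, 59.8 and 57.7 CPM.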

How the results depend on the processing

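The count of 0 of the 10 macrophage genes with an adjusted p under 0.05 was the same under each of the 18 alternatives, with a lowest adjusted p of 0.203. Of 179 values of their log2 fold changes under the alternatives, 6 turned in direction, in 2 genes. Csf1r ranged from -0.02 to 0.27 with 1 library left out. Cx3cr1 was -0.04 with library size alone and ranged from -0.14 to 0.15 with 1 library left out, and its exact permutation p was 0.914 with library size alone and 1.0 on FPKM. A minimum of 10 counts left out Cd163, so 9 genes were tested there.

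Of the other named genes, some within noise of 0 turned: Csf1 (0.02 without a filter, -0.13 to 0.12 with 1 library left out), Cx3cl1 (-0.19 to 0.01), Plcg2 (-0.00385 with library size alone, -0.000875 on log2(FPKM + 1), -0.08 to 0.12), Syk (-0.02 with library size alone, -0.09 to 0.07), C1s1 (0.02 with DESeq2 and with its size factors, 0.04 without a filter, 0.00253 with at least 10 counts, -0.15 to 0.14) and H2-DMa (-0.1 on log2(FPKM + 1), -0.12 on log2(FPKM + 0.1)). The causes were not tested.

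The count of all genes called lower, 230, was 131 with DESeq2's size factors, 415 with library size alone, 71 without a filter, 466 and 448 on log2(FPKM + 1) and log2(FPKM + 0.1), 1656 at an unadjusted p under 0.05, and 37 to 356 with 1 library left out (37 without Tmem232+/+ replicate 1, 356 without Tmem232-/- replicate 4). The median of all genes moved between -0.087 and 0.0 over the alternatives that kept all libraries. The 4 calls among the other macrophage markers became 2 with DESeq2, with the block and in 5 of the fits that left out a library.

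Across all genes, deviations of same-numbered libraries correlated at -0.043, 0.053, -0.299 and -0.099, which shows no pairing by replicate number over all genes. The 10 genes were higher in replicates 2 and 4 of both labels. A correlation over all genes cannot tell whether these replicates shared a factor that acts on few genes, and this was not tested. With the replicate block 1345 genes were called, against 1863 without it, and 28 were lower. Cd55 lost its call there. For Cd163, the lowest of the 10 genes, counting error alone gave a CV of 25.9%.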

Other observations

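Genes of other immune cells were read in the same libraries. The 5 dendritic cell genes summed to between 19.6 and 21.9 CPM for Tmem232-/- and between 18.9 and 22 CPM for Tmem232+/+, and the 6 monocyte genes to between 13.2 and 14.5 CPM and between 9.59 and 14.7 CPM, with 0 called in either list. The 10 T and NK cell genes in the table summed to between 4.32 and 5.71 CPM for Tmem232-/- and between 5.02 and 7.15 CPM for Tmem232+/+, and of 3 tested genes 1, Cd3e of the T cell receptor complex, was lower by edgeR at an adjusted p of 0.0403 (1.21 against 1.97 CPM). That call was lost in 10 of 18 alternatives, among them DESeq2 (adjusted p = 0.15), the replicate block (0.137), no filter (0.0667) and each library left out in turn other than Tmem232+/+ replicate 4 (0.0561 to 0.126). Of the other T and NK cell genes tested, Cd4 was higher (log2 fold change 0.43, edgeR adjusted p = 0.537) and Lck lower (-0.32, adjusted p = 0.344). Cd3d and Cd3g of the same complex as Cd3e were below the filter on low counts. Lower calls made up 1.46% of all genes tested. The 4 mast cell genes summed to at most 0.623 CPM. Of 13 genes of inflammatory and repair mediators in the table, 3 passed the filter on low counts and 0 were called, with 0 at an unadjusted p under 0.05.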
